A study of Mus musculus with 2 samples.

Results

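The cyclin-dependent kinase (CDK) inhibitor genes Cdkn1a, Cdkn1b, Cdkn1c, Cdkn2c and Cdkn2d were examined in Kit+ mouse bone marrow cells. The 5 genes were taken by name from the 32285 genes of the count matrices, and each was counted in both libraries. One library came from control cells and the other from cells labelled Utx deleted. Utx, whose gene symbol is Kdm6a, encodes a histone H3 lysine demethylase that also belongs to MLL3 and MLL4 complexes. In both groups the cells were CD45.2+ Kit+ bone marrow cells taken 10 weeks after transplantation, so the donor-marker and Kit selections and the transplant were shared. The labels do not give the method or driver of the deletion, the number, sex or age of the animals, or what the 2 antibody hashtags in each library stand for. With 1 library per group there is no replicate check, no test between conditions was made, and the difference between groups cannot be told apart from a difference between 2 libraries. All intervals are exact 95% intervals that cover counting error only.

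CDK inhibitors bind cyclin-dependent kinases or their cyclin complexes and hold back entry into, or passage through, the cell cycle. The Cip/Kip genes Cdkn1a, Cdkn1b and Cdkn1c encode p21, p27 and p57, which act on several cyclin-CDK complexes; p21 is a classical target of p53, and p57 and p27 are known for keeping blood stem cells quiescent. The INK4 genes Cdkn2c and Cdkn2d encode p18 and p19, which bind CDK4 and CDK6 and so oppose phosphorylation of the retinoblastoma protein. In the marrow, neutrophil precursors divide while they build their granules and then leave the cell cycle, which makes these cells a place where inhibitor genes can be followed from division to arrest.

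After filtering, 7020 cells of the control library and 7157 cells of the second library, labelled Utx-deleted and called Utx-labelled below, were kept, with median depths of 12402.5 and 11785 UMIs (unique molecular identifiers, each standing for 1 captured transcript). The 2 libraries shared 17 barcode sequences. Levels are given as CPM, the UMIs of a gene as a share of all gene UMIs of the same cells. Kdm6a was at 110 CPM in control and 103 CPM in Utx-labelled cells. The labels do not say which part of the gene was deleted, so whether 3′ counts could show the loss is not known, and Kdm6a did not check the label.

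Cells were placed in classes by the UMIs of marker genes, none of them a CDK inhibitor gene. Neutrophils were cells with at least 1% of their UMIs from Ltf, Camp, Ngp and Lcn2, all granule protein genes. Cycling neutrophils had at least 20 UMIs from 10 mitosis genes, and post-mitotic neutrophils had at most 2 UMIs from the mitosis genes and at most 2 from the replication genes. Stem-cell-like cells had UMIs of both Hlf and Mecom and at least 4 in sum. They also had fewer than 20 monocyte marker UMIs and fewer than 100 neutrophil progenitor marker UMIs. Cells called neutrophil, B-lineage, dendritic, basophil or mast, megakaryocyte or erythroid were left out of this class. Progenitors pooled cells with neutrophil, monocyte, megakaryocyte, erythroid and basophil or mast markers. These classes held 260 and 47 stem-cell-like cells, 1205 and 1395 progenitors, 1756 and 1589 cycling neutrophils and 2795 and 3319 post-mitotic neutrophils, in the control library and the Utx-labelled library. A class of this kind is a range of marker values: 493 and 393 neutrophils had 10 to 39 mitosis UMIs, and 167 and 69 cells had a stem marker sum of 2 to 7. In the stem-cell-like class the further markers Procr and Fgd5 were low, Procr at 12.1 CPM in control and 3.91 CPM in Utx-labelled cells and Fgd5 at 6.21 and 7.03 CPM. Its summed mitosis markers stood at 53.3% and 56.9% of the cycling-neutrophil level, and 121 of 260 and 26 of 47 of its cells carried at least 20 mitosis UMIs.

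Cdkn2d was lower in the Utx-labelled library in each of 10 classes, by 1.25-fold over all kept cells and by 1.57-fold in pooled progenitors. Cdkn1b was close to equal in the 2 libraries. Cdkn2c was high in cycling neutrophils and low in post-mitotic ones. Cdkn2d was 2.21-fold and 2.24-fold lower in post-mitotic than in cycling neutrophils in the 2 libraries, and the CPM level of Cdkn1b was close to equal in both stages. Cdkn1a was higher in cycling than in post-mitotic neutrophils, and Cdkn1c gave few UMIs, more of them in stem-cell-like cells than their number would give.

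The promoter windows of the 3 genes with the most UMIs are shown because these genes took different courses from dividing to post-mitotic neutrophils. RefSeq windows on GRCm38.p6, from 250 bases before to 50 bases after an annotated start, were found for 4 of the 5 genes; Cdkn1a and Cdkn2c have 2 such windows each. Capitals mark CCAAT or its reverse ATTGG, the E2F-type letters TTCCCGC or GCGGGAA, and the GC box GGGCGG or CCGCCC. Each sequence runs 5′ to 3′ along the gene's strand.
Cdkn1b, chr6:134920151-134920450, plus strand: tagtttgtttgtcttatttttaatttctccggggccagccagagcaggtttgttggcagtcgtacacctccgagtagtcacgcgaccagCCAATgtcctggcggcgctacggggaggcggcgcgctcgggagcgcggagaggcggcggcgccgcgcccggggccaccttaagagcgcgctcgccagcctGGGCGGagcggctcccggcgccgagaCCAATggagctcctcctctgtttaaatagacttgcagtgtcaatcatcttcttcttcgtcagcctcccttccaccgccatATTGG
Cdkn2c, first window, chr4:109666707-109667006, minus strand: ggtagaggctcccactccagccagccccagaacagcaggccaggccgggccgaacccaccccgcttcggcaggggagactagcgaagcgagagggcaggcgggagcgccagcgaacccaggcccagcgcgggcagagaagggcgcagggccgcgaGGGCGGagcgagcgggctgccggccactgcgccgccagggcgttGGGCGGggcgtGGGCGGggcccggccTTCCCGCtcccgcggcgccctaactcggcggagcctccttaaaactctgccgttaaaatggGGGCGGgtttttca
Cdkn2d, chr9:21291160-21291459, minus strand: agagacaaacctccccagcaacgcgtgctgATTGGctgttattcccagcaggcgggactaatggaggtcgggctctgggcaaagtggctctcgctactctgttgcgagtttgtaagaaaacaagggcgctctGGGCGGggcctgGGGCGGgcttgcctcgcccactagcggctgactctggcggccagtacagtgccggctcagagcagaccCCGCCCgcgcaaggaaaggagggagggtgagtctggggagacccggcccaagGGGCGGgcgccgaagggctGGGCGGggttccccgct
The Cdkn1b window held 3 CCAAT boxes and 1 GC box. The Cdkn2c window shown held 1 E2F-type match and 4 GC boxes, and the second one, not shown, held 1 CCAAT box and no E2F-type match or GC box. The Cdkn2d window held 1 CCAAT box and 5 GC boxes. No matches overlapped. Among 32851 windows of the same length, 37.4% held a CCAAT box, 4.60% the E2F-type letters and 35.7% a GC box. A match is a run of letters, and binding was not measured.

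Cdkn2d (ENSMUSG00000096472; chr9:21288410-21291407, minus strand, GRCm38) encodes p19-INK4d. With all kept cells summed, it stood at 154 CPM in control (16751 UMIs) and 124 CPM in Utx-labelled cells (13981 UMIs). The log2 ratio was -0.32 (interval -0.35 to -0.29). Among 13543 genes with at least 100 UMIs, 21.1% had a lower ratio, and the median gene was at -0.12. No CDK inhibitor gene passed 2-fold over all cells in either direction, beside 1.31% of genes past it upwards and 5.45% downwards.

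In stem-cell-like cells Cdkn2d was at 50.5 CPM in the control library and 29.7 CPM in the Utx-labelled library. The second value rests on 38 UMIs in 47 cells, and the log2 ratio was -0.73 (interval -1.29 to -0.28). This class is the smallest of those the design names, and 5.99% of 8325 genes had a lower ratio in it. No CDK inhibitor gene with enough UMIs passed 2-fold there, where 0.925% of genes were higher and 3.45% lower. In pooled progenitors Cdkn2d was at 34.0 and 21.7 CPM, a log2 ratio of -0.65 (interval -0.78 to -0.52), and of -1.02 once every cell was thinned to 2000 UMIs. At full depth no CDK inhibitor gene passed 2-fold in pooled progenitors, beside 1.20% of genes higher and 3.27% lower.

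The pooled progenitors held different mixes of lineages, with 293 control monocyte progenitors against 607 in the other library and 116 erythroid-marker cells against 15. Cdkn2d was therefore read lineage by lineage. In neutrophil progenitors, marked by Elane, Prtn3, Mpo and Ctsg, it was at 23.2 and 15.5 CPM (log2 ratio -0.58, interval -0.81 to -0.36). In monocyte progenitors it was at 36.3 and 25.1 CPM (log2 ratio -0.53, interval -0.73 to -0.33). The stage mix moved with these ratios. Cells with at least 20 mitosis UMIs, called in mitosis here, had higher Cdkn2d. They were 57.1% of control and 38.1% of Utx-labelled neutrophil progenitors, and 68.9% and 50.4% of monocyte progenitors. This cut is a fixed number of UMIs, and median depth was also lower in the Utx-labelled library. It was 30141.5 and 25372 UMIs in neutrophil progenitors and 33206 and 28442 UMIs in monocyte progenitors. The part of depth in the stage mix was not tested. Within mitosis the log2 ratios were smaller, -0.35 (interval -0.62 to -0.08) and -0.26 (interval -0.47 to -0.04), and within replication they were -0.69 (interval -1.16 to -0.23) and -0.83 (interval -1.45 to -0.17). With stages pooled, the cells of both hashtags had the lower level in the Utx-labelled library in each of these lineages. In megakaryocyte-marker cells the levels were 81.7 and 44.9 CPM (log2 ratio -0.85, interval -1.25 to -0.49). In basophil or mast cells they were 47.6 and 21.2 CPM (log2 ratio -1.14, interval -1.75 to -0.61), a 2.20-fold lower level. Among the 10 classes this was the one value of a CDK inhibitor gene past 2-fold on at least 100 UMIs; outside them Cdkn2d was also past 2-fold lower in B-lineage cells (-1.70 on 203 and 18 UMIs) and in cells of no class (-1.39 on 173 and 27 UMIs), where 2.86% and 1.23% of genes were lower and 2.02% and 1.51% higher. In basophil or mast cells 1.21% of genes passed 2-fold downwards and 0.971% upwards. Erythroid-marker cells were the exception, at 41.0 and 34.9 CPM, with an interval of -1.11 to 0.54 around a log2 ratio of -0.15. No CDK inhibitor gene passed 2-fold on at least 100 UMIs in the other 4 lineages, where the shares of genes past it upwards and downwards were 0.844% and 1.73% in neutrophil progenitors, 0.923% and 1.64% in monocyte progenitors, 0.569% and 1.09% in megakaryocyte-marker cells and 0.648% and 3.04% in erythroid-marker cells.

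The Cdkn2d ratios of the neutrophil classes lay closer to 0 than the ratio of pooled progenitors with stages pooled. Intervals were narrower than in pooled progenitors for cycling and post-mitotic neutrophils, but not for replicating ones. Within mitosis the neutrophil ratio (-0.31) lay between those of neutrophil progenitors (-0.35) and monocyte progenitors (-0.26). Erythroid-marker cells in mitosis were at 0.04, and megakaryocyte-marker (-0.98) and basophil or mast cells (-1.27) lay further from 0. In replicating neutrophils the level was 79.0 and 60.8 CPM, a log2 ratio of -0.38 (interval -0.65 to -0.11). In cycling neutrophils it was 333 and 268 CPM, a log2 ratio of -0.31 (interval -0.35 to -0.27). In post-mitotic neutrophils it was 150 and 120 CPM, a log2 ratio of -0.33 (interval -0.40 to -0.26). No CDK inhibitor gene passed 2-fold on at least 100 UMIs in these classes, beside 0.856%, 1.35% and 1.27% of genes higher and 1.13%, 2.32% and 3.69% lower. Cdkn2d was not among the most changed genes there: 12.7% of genes in cycling and 19.01% in post-mitotic neutrophils had a lower ratio.

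Among the 10 classes of the control library Cdkn2d was highest in cycling neutrophils, followed by Retnlg-high (177 CPM) and Retnlg-low (134 CPM) post-mitotic neutrophils. Megakaryocyte-marker cells and replicating neutrophils came next with overlapping intervals. Stem-cell-like, basophil or mast, erythroid-marker and monocyte progenitor cells followed, each overlapping the next, and neutrophil progenitors were lowest. Outside these 10 classes, control B-lineage cells had 165 CPM and dendritic cells 88.3 CPM. The direction of the difference between libraries held in most finer cuts of the cells. Cdkn2d was lower in 10 of 10 classes, with an interval below 0 in 9, and lower in the cells of both hashtags in all 10. Hashtag values show spread inside a library and are not replicates. In cycling neutrophils the hashtags gave 332 and 347 CPM in the control library against 282 and 283 CPM in the other. In stem-cell-like cells they gave 57.9 and 43.4 CPM against 40.02 and 24.7 CPM, so there the ranges nearly met. When lineage and cell cycle stage were both held fixed, 15 of 17 sets of cells had a lower level, 11 of them with an interval below 0. Of all genes, 71.0% were below 0 over all kept cells and 61.7% in pooled progenitors. In cycling and post-mitotic neutrophils 57.3% and 58.6% were. The classes and sets are overlapping cuts of the same 2 libraries, so their counts are not independent. The sets that were not lower were erythroid-marker cells in mitosis (log2 ratio 0.04) and stem-cell-like cells between stages, with 20 UMIs in 48 cells and 4 UMIs in 8 (log2 ratio 0.66, interval -1.60 to 1.98).

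**Figure D1:**
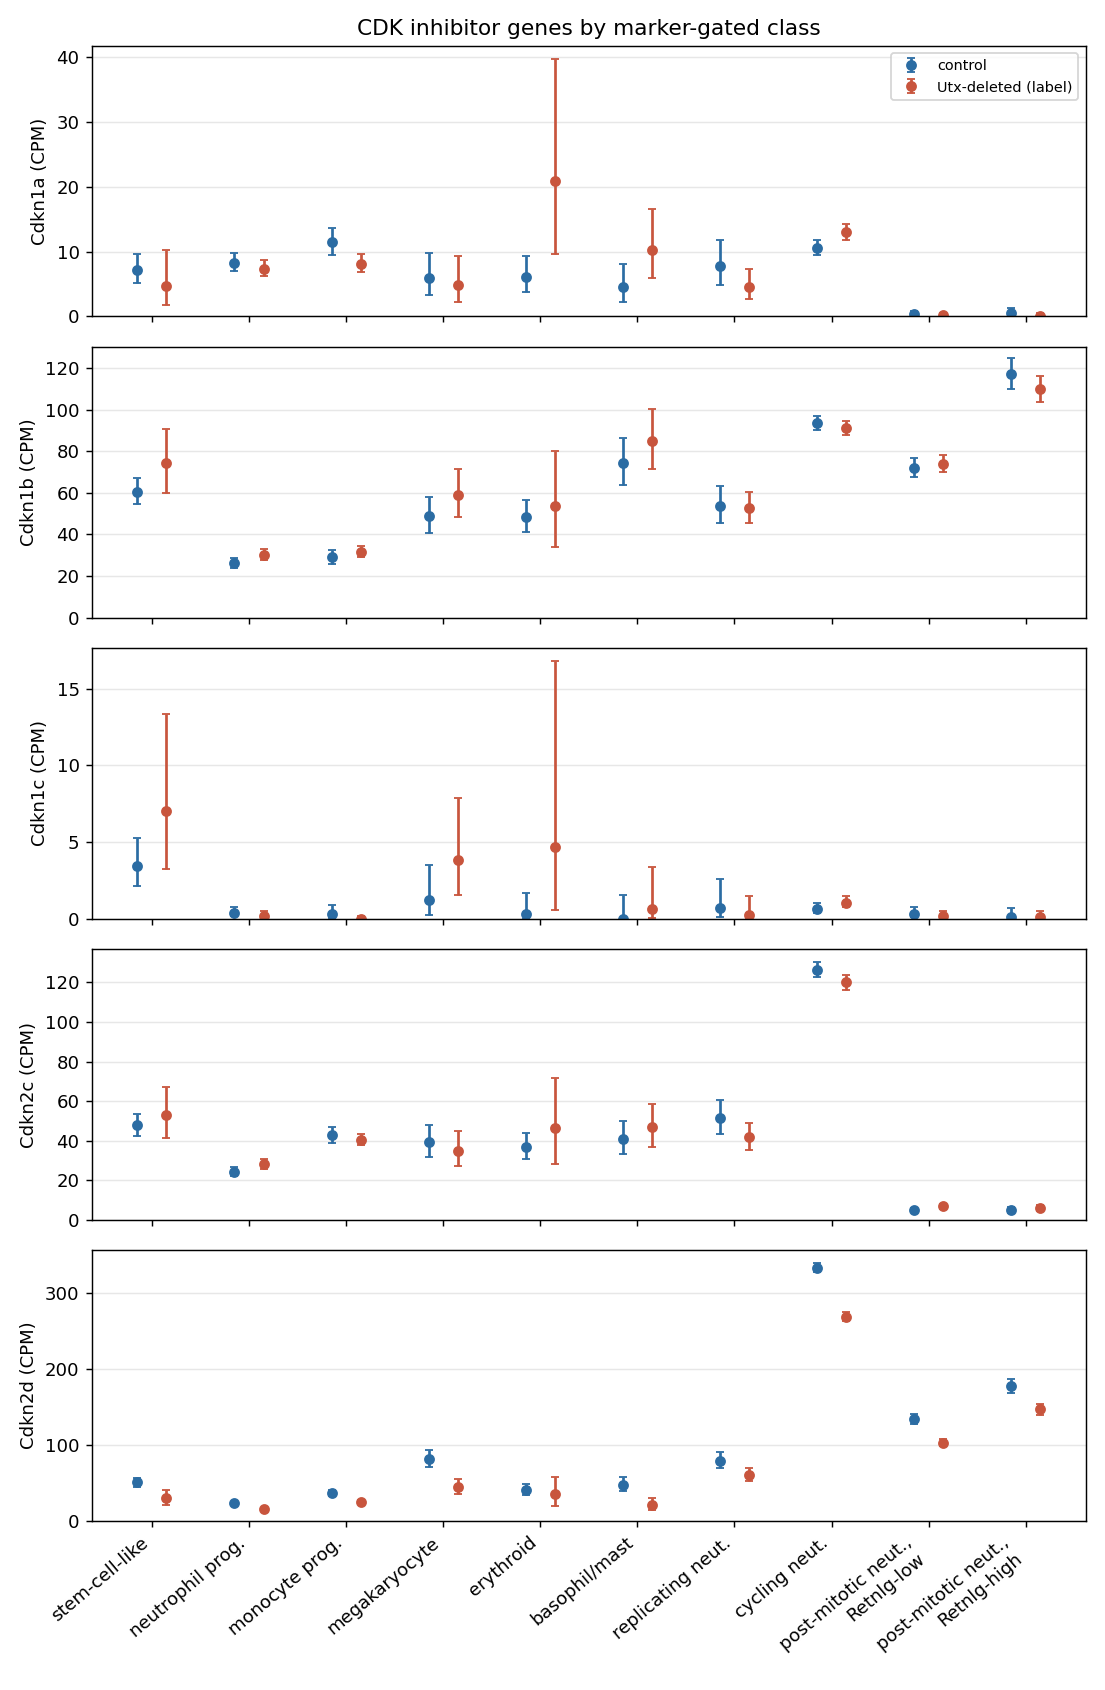
Level of each CDK inhibitor gene in CPM (vertical axes, each from 0) in 10 marker-gated classes, with points for the control library and the Utx-labelled library and bars for the exact 95% Poisson interval. The Utx-labelled points for Cdkn2d lie below the control points in all 10 classes, while those for Cdkn1b overlap or lie close together.

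Cdkn1b (ENSMUSG00000003031; chr6:134920401-134925513, plus strand, GRCm38) encodes p27-Kip1. Over all kept cells it was at 67.5 CPM (7335 UMIs) and 67.9 CPM (7680 UMIs), a log2 ratio of 0.01 (interval -0.04 to 0.05). In cycling neutrophils it was at 93.6 and 91.1 CPM (interval of the log2 ratio -0.11 to 0.03). In post-mitotic neutrophils it was at 89.0 and 87.8 CPM (interval -0.11 to 0.07). In these 3 comparisons the interval left room for a difference of at most 0.11 on the log2 scale in either direction. In pooled progenitors Cdkn1b was at 33.8 and 34.7 CPM. In stem-cell-like cells it was at 60.5 and 74.2 CPM, with an interval of -0.05 to 0.62 around a log2 ratio of 0.31; thinned to 2000 UMIs a cell, that ratio was -1.27 on 41 UMIs in all, so its direction was not stable. Of the 10 classes, neutrophil progenitors were the one whose interval excluded 0, at 26.3 and 30.2 CPM (log2 ratio 0.20, interval 0.02 to 0.38).

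Among the 10 control classes Cdkn1b was highest in Retnlg-high post-mitotic neutrophils (117 CPM) and then in cycling neutrophils. Basophil or mast cells (74.5 CPM) and Retnlg-low post-mitotic neutrophils (72.1 CPM) did not differ beyond counting error. Neutrophil and monocyte progenitors were lowest, with overlapping intervals.

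The stages of the cell cycle took the neutrophil progenitor value apart. In neutrophil progenitors with replication UMIs Cdkn1b was at 29.7 CPM in the control library and 23.1 CPM in the Utx-labelled library (log2 ratio -0.36, interval -0.67 to -0.05). In neutrophil progenitors with mitosis UMIs it was at 23.6 and 35.6 CPM (log2 ratio 0.59, interval 0.35 to 0.84). The directions were thus opposite in the 2 stages. Monocyte progenitors did not show this: their log2 ratios were 0.01 in replication and 0.12 in mitosis, and both intervals included 0. Whether the stages differ between the libraries beyond counting error was not tested.

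Cdkn2c (ENSMUSG00000028551; chr4:109660876-109667189, minus strand, GRCm38) encodes p18-INK4c. Over all kept cells it was at 56.3 CPM (6125 UMIs) and 52.1 CPM (5894 UMIs), a log2 ratio of -0.11 (interval -0.17 to -0.06), next to the median of all genes at -0.12. In stem-cell-like cells it was at 47.9 and 53.1 CPM and in pooled progenitors at 32.6 and 35.1 CPM, and both intervals included 0. Thinning turned both directions, to log2 ratios of -0.99 on 22 UMIs in all and -0.11 on 166. Neutrophil progenitors, one of the lineages pooled there, had 24.2 and 28.1 CPM (log2 ratio 0.22, interval 0.03 to 0.41). Stem-cell-like cells in replication had 21.2 and 58.4 CPM on 36 and 17 UMIs (log2 ratio 1.51, interval 0.54 to 2.33), the second value from 12 cells. In cycling neutrophils it was at 126 and 120 CPM (log2 ratio -0.07, interval -0.14 to -0.01), and this direction turned too under thinning, to 0.12. In post-mitotic neutrophils it was at 4.79 and 6.48 CPM, on 102 and 186 UMIs (log2 ratio 0.43, interval 0.08 to 0.80). In the post-mitotic cells with fewer than 10 Retnlg UMIs it gave 64 and 121 UMIs (log2 ratio 0.51, interval 0.07 to 0.98); there the hashtags gave 0.90 and 0.06. In the Retnlg-high cells the hashtags pointed in opposite directions, at -1.13 and 1.001. Among the 10 control classes Cdkn2c was highest in cycling neutrophils. Outside them, control B-lineage cells had 111 CPM and dendritic cells 59.7 CPM, on 137 and 23 UMIs. Replicating neutrophils, stem-cell-like cells and the monocyte, basophil or mast, megakaryocyte and erythroid classes lay between 51.3 and 36.8 CPM, each overlapping the next, with neutrophil progenitors below them and post-mitotic neutrophils last. No CDK inhibitor gene passed 2-fold on at least 100 UMIs in Retnlg-low and Retnlg-high cells, where 1.06% and 0.918% of genes were higher and 2.77% and 3.80% lower.

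Cdkn1a (ENSMUSG00000023067; chr17:29090976-29100727, plus strand, GRCm38) encodes p21. The annotation has AC167363.2 on the opposite strand over it. It was at 7.84 CPM (852 UMIs) and 7.09 CPM (802 UMIs) over all kept cells, a log2 ratio of -0.15 whose sign turned under thinning (0.051) and with classes weighted alike (0.25). In cycling neutrophils Cdkn1a was at 10.6 CPM in the control library and 13.004 CPM in the Utx-labelled library (log2 ratio 0.29, interval 0.08 to 0.50). In monocyte progenitors it was at 11.4 and 8.12 CPM (log2 ratio -0.49, interval -0.85 to -0.13). The directions were opposite and each was shared by both hashtags. In neutrophil progenitors it was at 8.30 and 7.39 CPM with an interval that included 0. Post-mitotic neutrophils gave 9 and 4 UMIs in all. Erythroid-marker cells had a log2 ratio of 1.87 (interval 0.47 to 2.98), but the Utx-labelled side was 9 UMIs in 3 of 15 cells, and UMIs that share a cell are not independent counts. Basophil or mast cells had a log2 ratio of 1.14 on 11 and 17 UMIs, with an interval of 0.00 to 2.42.

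Cdkn1c (ENSMUSG00000037664; chr7:143458339-143461050, minus strand, GRCm38) encodes p57 and is imprinted, with expression from the maternal copy. Gm44732 lies over it on the opposite strand. It gave 73 and 66 UMIs in the 2 libraries. In stem-cell-like cells there were 21 UMIs in the control library (3.43 CPM, interval 2.13 to 5.25) and 9 in the other (7.03 CPM, interval 3.22 to 13.4). Pooled progenitors gave 14 and 13 UMIs, or 0.381 and 0.332 CPM, a log2 ratio of -0.19 that became 2.04 with every lineage weighted equally. Of these, 3 and 7 UMIs lay in the 96 and 50 megakaryocyte-marker cells (1.19 and 3.83 CPM), which were 1.37% and 0.699% of the kept cells and held 4.11% and 10.6% of the Cdkn1c UMIs. Stem-cell-like cells were 3.70% and 0.66% of the kept cells and held 28.8% and 13.6% of the Cdkn1c UMIs. Cycling neutrophils, 25.01% and 22.2% of the kept cells, held 28.8% and 53.03% of them, on 21 and 35 UMIs (0.651 and 1.06 CPM). The log2 ratio between libraries in stem-cell-like cells was 1.12 with an interval of -0.28 to 2.22, so a difference was not detectable at this depth. The 20 cells with the most Cdkn1c UMIs held 35.6% and 36.4% of them. The INK4 genes outside these 5 were scarcely captured, with 45 and 29 UMIs of Cdkn2a and 8 and 8 UMIs of Cdkn2b, and were not compared.

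**Figure D2:**
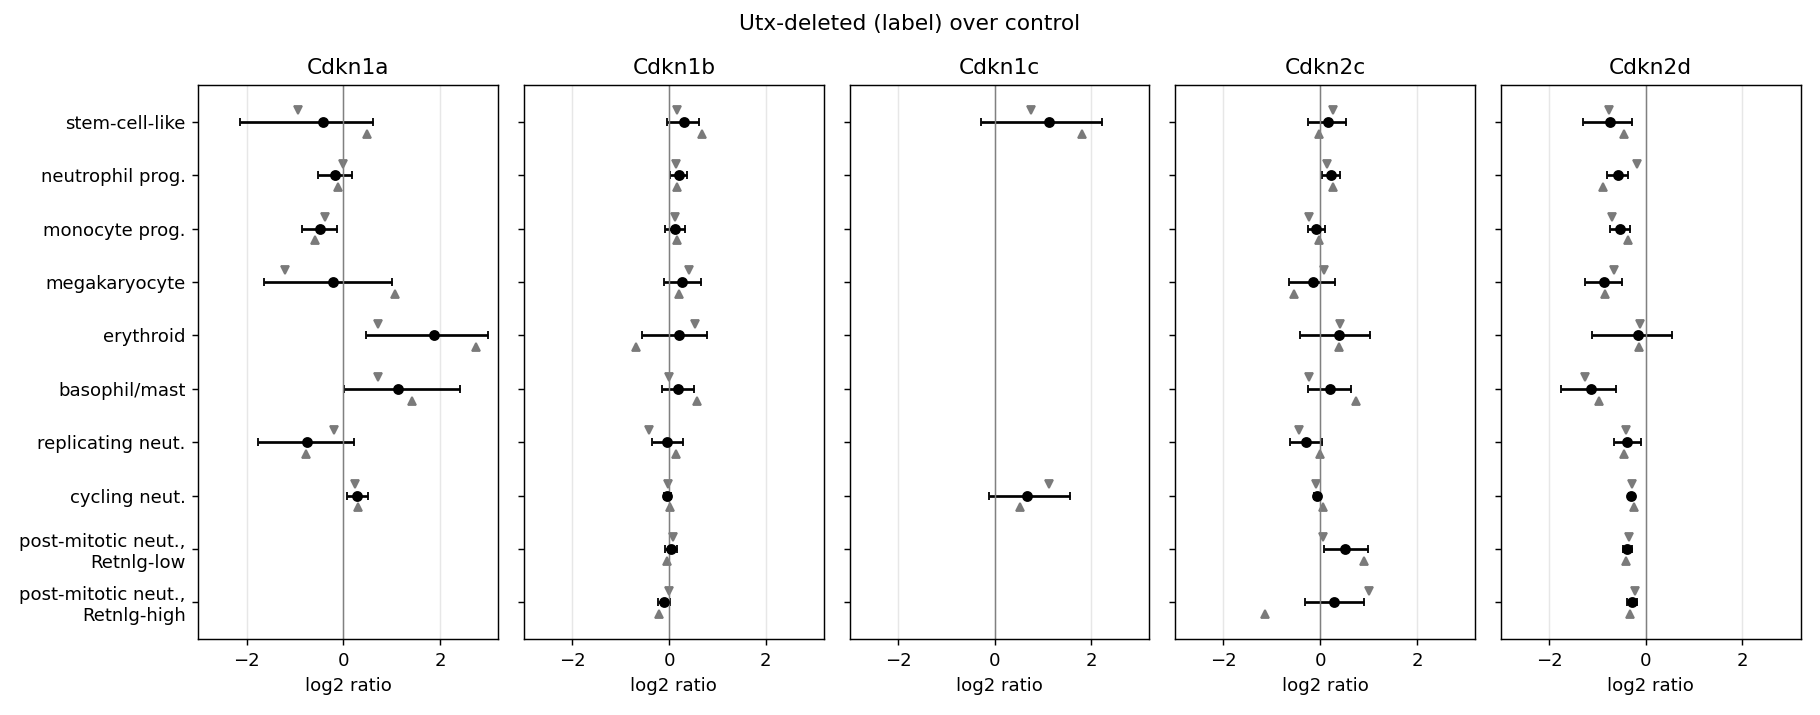
Log2 ratio of the Utx-labelled library over the control library for each CDK inhibitor gene and class (black points, with 95% counting intervals) and in the cells of each hashtag (grey triangles, hashtag 1 pointing up and hashtag 2 down). Ratios resting on fewer than 20 UMIs are not drawn. All points for Cdkn2d lie left of 0, and its interval reaches across 0 in erythroid-marker cells.

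From cycling to post-mitotic neutrophils the genes took different courses. Cdkn2c was 26.1-fold lower in post-mitotic than in cycling control neutrophils and 18.4-fold lower in the Utx-labelled library. The log2 differences were -4.71 and -4.21, and the counting interval of the first ended at -4.438 where that of the second began at -4.432. Cdkn2d was 2.21-fold and 2.24-fold lower. Cdkn1b was level: the log2 difference was -0.07 (interval -0.16 to 0.01) in the control library and -0.05 (interval -0.13 to 0.03) in the other. Cdkn1a went from 343 to 9 UMIs and from 431 to 4 UMIs, that is, from 10.6 to 0.423 CPM and from 13.004 to 0.139 CPM. These levels are shares of a cell's RNA. Median depth was 16998.5 UMIs in control cycling and 7456 UMIs in control post-mitotic neutrophils, so per cell Cdkn1b went from 1.72 to 0.678 UMIs and Cdkn2d from 6.12 to 1.14 UMIs. Less RNA captured per cell and less RNA in each cell cannot be told apart.

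Transcripts from broken cells add a low level of foreign UMIs to every droplet. The neutrophil marker sum in pooled progenitors was 0.403% of its neutrophil level in the control library and 0.456% in the other. The gate limits this sum, because cells with at least 1% of their UMIs from these markers were called neutrophils. The summed neutrophil progenitor markers in post-mitotic neutrophils were 1.19% and 0.711% of their level in neutrophil progenitors. Post-mitotic Cdkn2c stood at 4.79 CPM against 126 CPM in cycling cells, and the part of such transcripts in that level was not tested. The mitosis markers in post-mitotic cells were at 1.28% and 0.930% of the cycling level, but the gate itself limits them.

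Between replication and mitosis, both INK4 genes and Cdkn1b were higher in the later stage in neutrophils, and the INK4 genes also in pooled progenitors of both libraries. In neutrophils Cdkn2d went from 79.0 to 333 CPM in the control library, a 4.19-fold difference, and from 60.8 to 268 CPM in the other, a 4.39-fold difference. Cdkn2c went from 51.3 to 126 CPM and from 41.9 to 120 CPM. Cdkn1b went from 53.8 to 93.6 CPM and from 52.7 to 91.1 CPM, differences of 1.73-fold and 1.72-fold. Cdkn1a went from 7.83 to 10.6 CPM in the control library, with an interval that included 0, and from 4.59 to 13.004 CPM in the other, where replication gave 17 UMIs. The replicating neutrophils also carried more of the progenitor marker Elane. It was at 1818 CPM in replicating and 706 CPM in cycling control neutrophils, and at 2554 and 542 CPM in the other library. Stage and maturity therefore cannot be told apart in these neutrophil differences. In pooled progenitors Cdkn2d was at 16.5 CPM in replication and 42.2 CPM in mitosis in the control library, and at 9.26 and 31.7 CPM in the Utx-labelled library. Cdkn2c was at 21.3 and 38.8 CPM in control progenitors, and at 27.7 and 42.6 CPM in the other library. In stem-cell-like cells Cdkn2c was 3.02-fold higher in mitosis in the control library, while the Utx-labelled library had 58.4 CPM in replication and 58.6 CPM in mitosis (log2 difference -0.05, interval -0.81 to 0.89) on 17 and 51 UMIs. Cdkn1a was at 8.71 and 8.62 CPM in control progenitors, with no difference beyond counting error. Cdkn1b was at 33.2 and 31.3 CPM in control progenitors, and at 26.5 and 37.2 CPM in the other library. Few progenitors carried neither marker set, 18 and 28 cells, and Cdkn1b was at 107 and 133 CPM in them, above its 33.2 and 26.5 CPM in replication. That small set held cells of 5 lineages in unequal numbers.

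**Figure D3:**
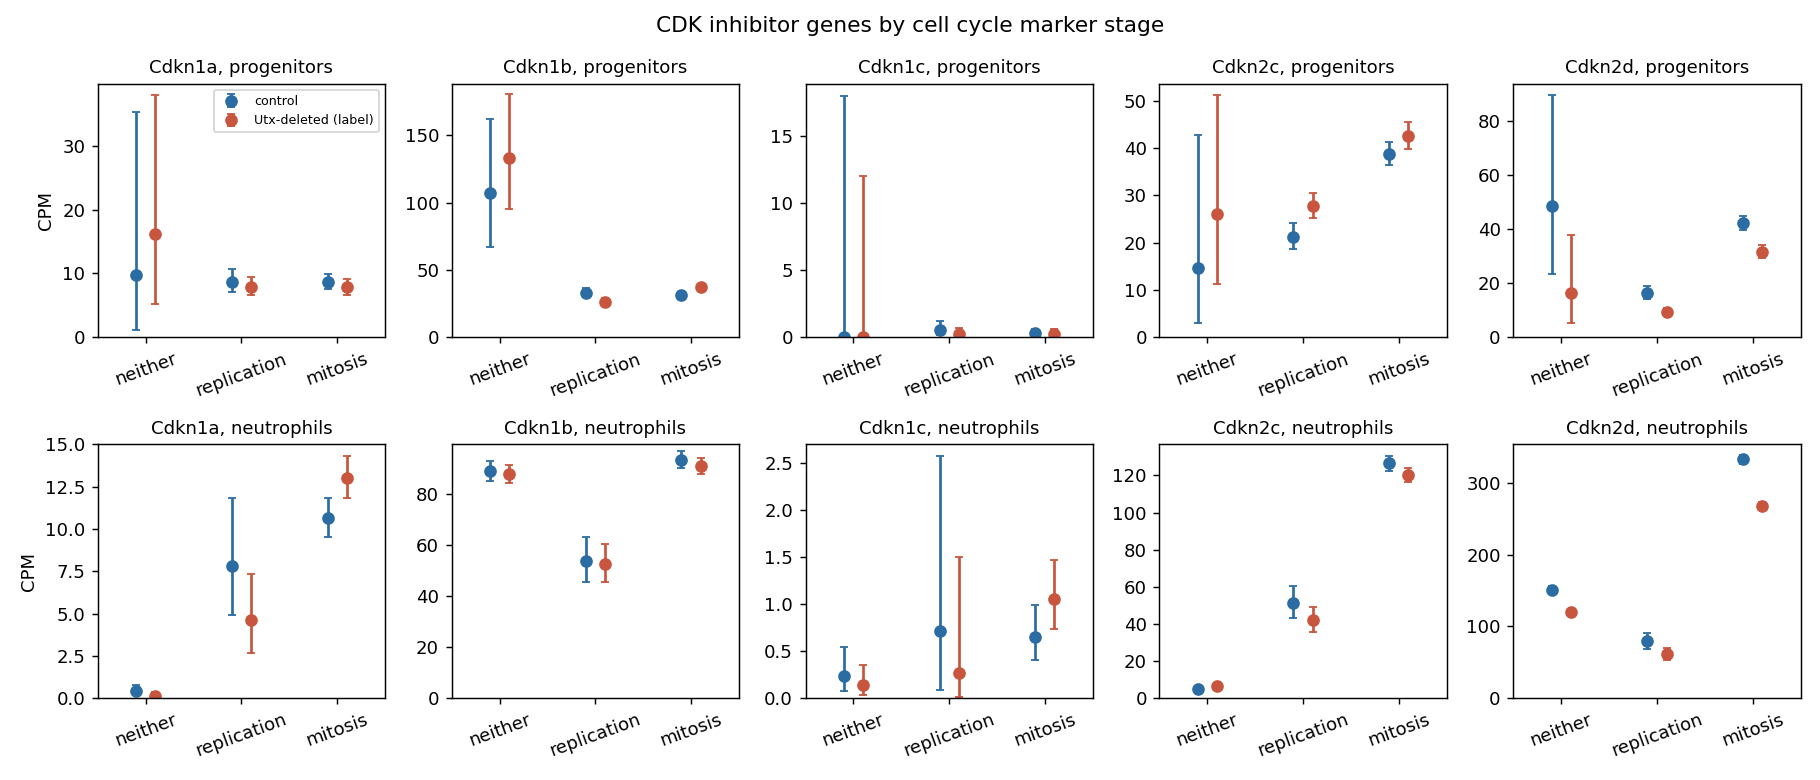
Level of each CDK inhibitor gene in CPM by cell cycle marker stage (neither set, replication, mitosis) in pooled progenitors (top row) and neutrophils (bottom row), with exact 95% Poisson intervals; each panel has its own scale from 0. Cdkn2c and Cdkn2d are higher in mitosis than in replication in both rows, and Cdkn2d and Cdkn1b stay above 80 CPM in neutrophils with neither set.

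Post-mitotic neutrophils were then ordered by their UMIs of Retnlg, a gene of late marrow neutrophils. Cdkn1b was at 73.0 CPM in control cells with no Retnlg UMI and at 142 CPM in those with at least 100. The corresponding levels in the Utx-labelled library were 73.9 and 129 CPM. Cdkn2d went from 121 to 195 CPM in the control library and from 99.1 to 166 CPM in the other. In all 8 bins of Retnlg UMIs the Cdkn2d level was lower in the Utx-labelled library. Cdkn2c stayed between 3.05 and 5.88 CPM in the control library and between 4.71 and 8.39 CPM in the other. Median depth moved with the bins, from 8482 to 6058 UMIs in the control library and from 8918 to 7122.5 UMIs in the other, and its part in these differences was not tested. Per cell, Retnlg-high control cells held 0.779 Cdkn1b UMIs against 0.602 in Retnlg-low ones, and 1.18 Cdkn2d UMIs against 1.12.

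**Figure D4:**
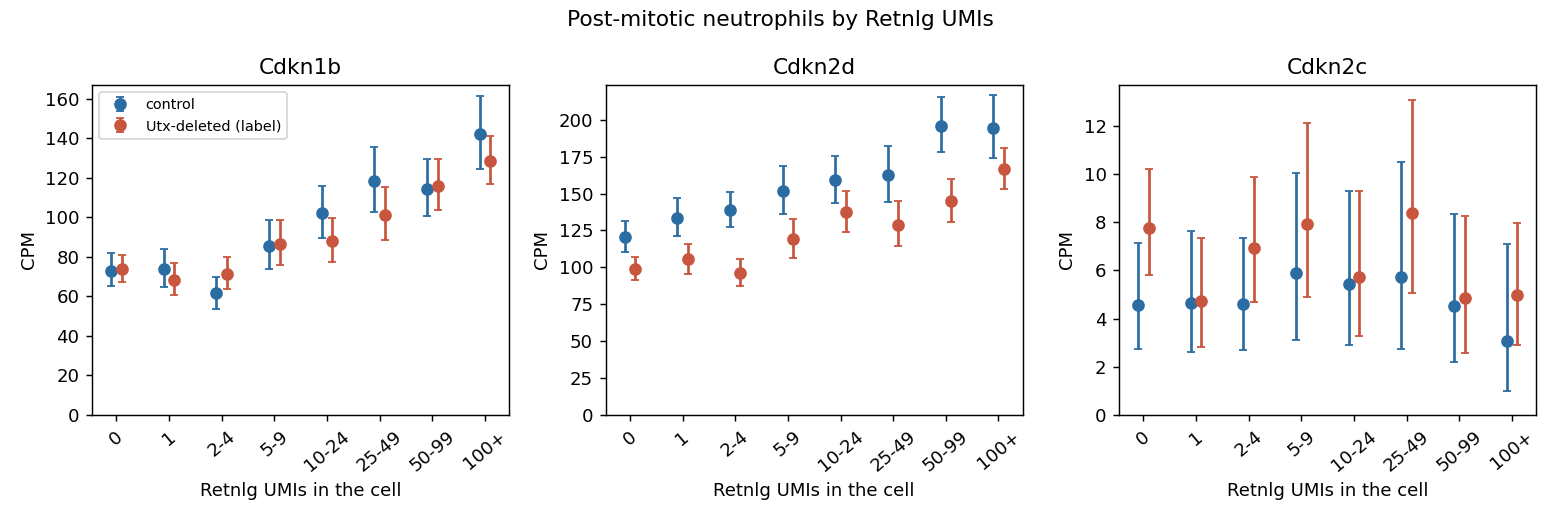
Level of Cdkn1b, Cdkn2d and Cdkn2c in CPM (vertical axes from 0) in post-mitotic neutrophils sorted by the number of Retnlg UMIs in the cell, with exact 95% Poisson intervals for both libraries. Cdkn1b and Cdkn2d are higher at 100 or more Retnlg UMIs than at 0, and Utx-labelled Cdkn2d points lie below control points in all 8 bins.

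Shares of cells with a UMI depend on depth, so they are given thinned and unthinned. With each cell thinned to 2000 UMIs, Cdkn2d was detected in 46.4% of control cycling neutrophils (exact binomial interval 44.1% to 48.8%) and in 41.9% (39.4% to 44.3%) of those labelled Utx-deleted. Unthinned, the shares were 95.3% and 96.3%, the other way round, at median depths of 16998.5 and 17594 UMIs. In thinned progenitors Cdkn2d was detected in 6.72% and 3.15% of cells, and in thinned post-mitotic neutrophils in 26.1% and 22.03%. Unthinned, those shares were 50.4% and 35.8% of progenitors, at median depths of 29585 and 26832 UMIs, and 65.9% and 62.3% of post-mitotic neutrophils. The thinning left out 101 and 42 post-mitotic neutrophils with fewer UMIs and no cell of the other named classes. Cdkn1b was detected in 16.7% and 17.5% of thinned cycling neutrophils and in 17.4% and 16.8% of thinned post-mitotic ones. Cdkn1a was detected in 13.3% and 19.8% of unthinned cycling neutrophils, against 0.322% and 0.121% in post-mitotic neutrophils at median depths of 7456 and 8273 UMIs. Thinned, the cycling shares were 2.22% and 2.71%, whose intervals overlap.

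Cells could carry several inhibitor genes at once. In cycling neutrophils 98.0% of control cells with a Cdkn2c UMI also had a Cdkn2d UMI, and 97.5% did in the other library. In progenitors Cdkn2d was found in 59.3% of control cells with Cdkn2c and in 40.6% of those without, against 42.6% and 28.0% in the Utx-labelled library. Deeper cells have more of every gene, and these shares were not thinned. None of the 5 genes was detected in 18.8% and 19.1% of post-mitotic neutrophils and in 1.37% and 0.69% of cycling ones.

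Across the 20 points formed by 10 classes in 2 libraries, the genes whose log2 level followed each inhibitor gene most closely were named from 9813 genes with at least 1000 UMIs. For Cdkn2d these were Lrch4 (Pearson r 0.93), H3f3a (0.91) and Sp3 (0.91). For Cdkn1b they were Wbp2 (0.97), Gsk3b (0.93) and the cyclin D3 gene Ccnd3 (0.93). For Cdkn2c they were Neil3 (0.97), Fbxo5 (0.96) and Stil (0.95), and for Cdkn1a they were Dsn1 (0.88), Tubg1 (0.88) and Rnf26 (0.87). Among the inhibitor genes themselves, Cdkn2c went with Cdkn1a (0.79) and Cdkn2d with Cdkn1b (0.70), while Cdkn2c and Cdkn2d did not go together (-0.02). Points of a library share its depth and free RNA, and neighbouring classes share a lineage, so these values describe the classes.

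Beyond the inhibitors, the CDKs and cyclins they bind had list medians on either side of 0, depending on the class. Of 9 such genes tested in pooled progenitors, 1 was past 2-fold lower and 0 higher, beside 3.27% and 1.20% of all genes, and the median log2 ratio was -0.18 beside -0.06 over all genes. The extremes were the cyclin D1 gene Ccnd1, at -1.46, and the cyclin E1 gene Ccne1, at 0.21. Ccnd1 was also past 2-fold lower over all kept cells (-1.07), beside 5.45% of all genes. The same held in neutrophil progenitors (-1.76), monocyte progenitors (-1.75) and megakaryocyte-marker cells (-1.20), beside 1.73%, 1.64% and 1.09% of all genes. In cycling neutrophils none of the 9 passed 2-fold, with a median of -0.13 beside -0.03. Post-mitotic neutrophils allowed 4 of the 9 to be read, none past 2-fold, at a median of -0.08 beside -0.06. In stem-cell-like cells 8 could be read, none past 2-fold, at a median of 0.16 beside 0.01. Of all genes in cycling neutrophils, post-mitotic neutrophils and stem-cell-like cells, 1.35%, 1.27% and 0.925% were past 2-fold higher. The shares past 2-fold lower were 2.32%, 3.69% and 3.45%.

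The pocket proteins and E2F factors, which lie downstream of CDK4 and CDK6, showed no member past 2-fold in stem-cell-like cells (8 read), progenitors (9), cycling neutrophils (9) or post-mitotic neutrophils (8). In these classes, in that order, 0.925%, 1.20%, 1.35% and 1.27% of all genes were past it upwards and 3.45%, 3.27%, 2.32% and 3.69% downwards. Their medians were -0.09, -0.15, -0.15 and -0.19, beside 0.01, -0.06, -0.03 and -0.06 for all genes. E2f2 was the lowest in progenitors, at -0.76, and in cycling neutrophils, at -0.54. In finer classes 3 values of this list were past 2-fold lower: E2f2 in neutrophil progenitors (-1.22 on 141 and 57 UMIs) and in replicating neutrophils (-1.05 on 396 and 251 UMIs), and E2f8 in Retnlg-high neutrophils (-1.06). In these 3 classes 1.73%, 1.13% and 3.80% of all genes were past 2-fold lower. The genes for turnover of p27, among them Skp2 and Cks1b, also had no member past 2-fold in the 4 main classes. The shares of all genes past it there are those given above for the pocket proteins. The medians of the turnover genes were 0.18, -0.09, -0.02 and 0.13, beside 0.01, -0.06, -0.03 and -0.06 for all genes. Cks1b was at -1.004 in Retnlg-high neutrophils on 65 and 45 UMIs, where 3.80% of all genes were past 2-fold lower. Skp2, which marks p27 for destruction, was at -0.10 in both progenitors and cycling neutrophils.

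Of the p53 pathway genes, 1 of 8 read in cycling neutrophils was past 2-fold higher, Bbc3 at 1.30 on 50 and 128 UMIs, beside 1.35% of all genes, and the median was 0.10 beside -0.03. None of 7, 11 and 8 passed 2-fold in stem-cell-like cells, progenitors and post-mitotic neutrophils. There 0.925%, 1.20% and 1.27% of all genes were past it upwards and 3.45%, 3.27% and 3.69% downwards. The list medians were 0.04, -0.18 and -0.14, beside 0.01, -0.06 and -0.06. Over all kept cells Phlda3 was past 2-fold lower, 1 of 13 read, beside 5.45% of all genes. In Retnlg-low post-mitotic neutrophils Bbc3 was past 2-fold higher, 1 of 8 read, beside 1.06%. Bbc3, which encodes the pro-apoptotic protein PUMA, was also the highest of that list in progenitors, at 0.63, and in post-mitotic neutrophils, at 0.92. In progenitors the rest of the list, 10 of 11 genes, was below 0, beside 61.7% of all genes, with Phlda3 lowest. Trp53inp1 was the lowest in cycling and in post-mitotic neutrophils, at -0.20 and -0.48.

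Of the transcription factors linked to the inhibitor genes, Smad3, which relays transforming growth factor beta signals, was past 2-fold lower in progenitors (-1.07), cycling neutrophils (-1.75) and post-mitotic neutrophils (-1.25). The list had 1 of 11, 1 of 8 and 2 of 8 genes past 2-fold lower in these classes and 0 higher, beside 3.27%, 2.32% and 3.69% of all genes lower, with medians of -0.01, 0.05 and -0.10; the second post-mitotic gene was Myc, at -1.65 on 90 and 38 UMIs. Gfi1, a repressor needed for neutrophil formation, was the highest in cycling and post-mitotic neutrophils, at 0.38 and 0.70. In stem-cell-like cells it was the lowest, at -2.36 on 122 and 4 UMIs, the 1 of 7 genes past 2-fold there beside 3.45% of all genes lower, with a list median of -0.48. The summed neutrophil progenitor markers in that class were at 847 CPM in control and 459.5 CPM in Utx-labelled cells, and Irf8 was at 23.1 and 1.56 CPM. The gate of the class limits these markers, and their part in the Gfi1 value was not tested.

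The quiescence-associated genes were chosen for their role in stem cells, and 2 of them, Hlf and Mecom, also set the stem-cell-like gate. Over all kept cells 4 of 7 read were past 2-fold lower, beside 5.45% of all genes, with a median of -1.06 beside -0.12, while stem-cell-like cells made up 3.70% of one library and 0.66% of the other. Inside the stem-cell-like class none of 6 passed 2-fold and the median was 0.12. That median includes the gate genes Hlf (0.22) and Mecom (0.57), so it cannot show how the list moved apart from the gate. Of the genes outside the gate, Txnip was at -0.79, Mllt3 at -0.09, Cd81 at 0.04 and Meis1 at 0.21. In pooled progenitors all 6 were below 0, beside 61.7% of all genes, at a median of -0.67 beside -0.06. None was past 2-fold there, beside 3.27% of all genes lower and 1.20% higher. Single lineages differed: 4 of 6 were above 0 in basophil or mast cells and 3 of 5 in erythroid-marker cells. In neutrophil progenitors 1 of 6, in monocyte progenitors 2 of 6 and in megakaryocyte-marker cells 0 of 6 were above 0. Hlf (-1.11) and Mecom (-1.84) were past 2-fold lower in monocyte progenitors, beside 1.64% of all genes. In cycling neutrophils 0 of 6 and in post-mitotic neutrophils 0 of 4 passed 2-fold, at medians of -0.12 and -0.20 beside -0.03 and -0.06. Of 13 imprinted genes of the Cdkn1c network, 2, 3, 2 and 1 could be read in stem-cell-like cells, progenitors, cycling and post-mitotic neutrophils. Grb10 was past 2-fold higher in stem-cell-like cells, at 2.36 on 111 and 119 UMIs, beside 0.925% of all genes. No other imprinted gene read was past 2-fold in these classes, beside the shares of all genes given for the pocket proteins. Kcnq1ot1, the noncoding transcript that silences the Cdkn1c domain on the paternal copy, was at 0.37, 0.05, 0.40 and 0.16.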

How the data were processed

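Kit+ bone marrow cells of 2 libraries were profiled by droplet 3′ RNA sequencing with barcoded antibodies. The values used are raw UMI counts per gene and cell in the matrices the authors deposited, made with Cell Ranger 7.1.0 and mm10, per the submitters' processing notes. The annotation release and the cell-calling settings are not given in the sources used here. The 15 antibody tags were kept out of the gene totals, and 2 of them, the hashtags, split the cells of a library.

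Cells with at least 500 genes and at most 10% mitochondrial UMIs were kept, which left out 349 control barcodes and 214 of the other library. The top 6% of Scrublet scores in each library (scanpy 1.11.5) were removed as doublets, 458 and 512 barcodes counting those tied at the lowest score removed, because the automatic threshold marked next to none. Depth of the deposited libraries was 122130256 and 129736034 UMIs. Cuts on marker UMIs were placed on the markers' own distributions. Besides the cuts given above, progenitor lineages needed 10 UMIs of megakaryocyte, erythroid or basophil and mast markers, 20 of monocyte markers or 100 of neutrophil progenitor markers. Counts were summed by class and library and divided by all gene UMIs of the class. Ratios had 1 UMI added to each side, and their intervals condition on the summed UMIs. Genes were read on at least 100 UMIs and single values of the inhibitor genes on at least 20. Called means past 2-fold, since no test was possible. Likeness used log2 of CPM plus 10. The ratio and its interval were tried on counts simulated with counting error only. Most of the set changes passed 2-fold in the set direction. Spread between cells or libraries was not simulated.

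Named genes were the 5 inhibitor genes, the genes of the lists given above (at most the highest and lowest of a list per class, plus those past 2-fold), and the 3 closest genes by correlation; Trp53inp1, Skp2 and Kcnq1ot1 are of those lists. The inhibitor genes and the lists were chosen with earlier results of these data known. Alternatives were a stricter cell filter (1000 genes, 5% mitochondrial UMIs), no doublet removal, scaling by TMM (edgeR 4.0.16), thinning, halved and doubled cuts, other UMI minimums, and 4 added later. Analyses ran in Python 3.11.15 with numpy 2.4.6 and scipy 1.17.1 and in R 4.3.3. No values of samples outside the 2 libraries were used.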

Additional observations from a re-analysis of the deposited data

Results flagged for a closer look

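Cdkn1a stood out because its difference between libraries went one way in cycling neutrophils and the other way in monocyte progenitors, in the cells of both hashtags each time. The log2 ratio was 0.78 higher in cycling neutrophils (0.29) than in monocyte progenitors (-0.49). Hashtags are not samples, and whether the 2 ratios differ beyond the spread between libraries was not tested. Median depth was 16998.5 and 17594 UMIs in the cycling neutrophils and 33206 and 28442 UMIs in the monocyte progenitors of the control and Utx-labelled libraries, in that order.

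Cdkn2c stood out because its ratio was 0.58 higher on the log2 scale in Retnlg-low post-mitotic neutrophils (0.51) than in cycling neutrophils (-0.07), with counting intervals on opposite sides of 0. Thinned to 2000 UMIs a cell, the cycling ratio was 0.12 with an interval that included 0 (-0.08 to 0.32). The thinned Retnlg-low ratio was 0.97 on 12 and 31 UMIs (interval 0.04 to 2.14), so the opposite directions were not kept. Thinned Retnlg-high cells went the other way, at -0.41 on 16 and 14 UMIs (interval -1.56 to 0.71). Thinning of the cells split by Retnlg was added after seeing the data. The difference between cycling and Retnlg-low cells was not tested. In cycling neutrophils the hashtags gave 0.05 and -0.08, and in the Retnlg-low cells 0.90 and 0.06, so the size in the Retnlg-low cells rests mostly on hashtag 1.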

How the results depend on the processing

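The alternatives fixed with the design were joined by 4 chosen after seeing the data: the cells of each hashtag, leaving out barcodes with both hashtags, and weighting every class alike in the 2 libraries. Cdkn2d stayed below 0 in 46 of 46 alternative values over all cells and the 4 classes, from -1.02 to -0.20. Cdkn1b kept its sign in 34 of 46, Cdkn2c in 37 of 46, Cdkn1a in 30 of 35 and Cdkn1c in 27 of 29. All of these values reuse cells of the same 2 libraries and are not independent. The stricter cell filter, no doublet removal and halved cuts left every ratio inside its counting interval. TMM scaling raised the median of all genes by about 0.12 over all cells and gave log2 ratios of 0.13 (Cdkn1b), 0.0043 (Cdkn2c) and -0.20 (Cdkn2d) there. Thinning to 2000 UMIs gave 0.051 (Cdkn1a) and -0.063 (Cdkn1b) over all cells; -1.27 (Cdkn1b) and -0.99 (Cdkn2c) in stem-cell-like cells; 0.50 (Cdkn1a), -0.093 (Cdkn1b), -0.11 (Cdkn2c) and -1.02 (Cdkn2d) in progenitors; 0.063 (Cdkn1b), 0.12 (Cdkn2c) and -0.24 (Cdkn2d) in cycling and -0.25 (Cdkn2d) in post-mitotic neutrophils. Doubled cuts gave -0.15 (Cdkn2c) and -0.36 (Cdkn2d) in cycling neutrophils. Hashtag 1 cells gave 0.095 (Cdkn1b) and -0.23 (Cdkn2d) over all cells, 0.67 (Cdkn1b) in stem-cell-like cells and 0.054 (Cdkn2c) and -0.24 (Cdkn2d) in cycling neutrophils. Hashtag 2 cells gave -0.10 (Cdkn1b), -0.21 (Cdkn2c) and -0.49 (Cdkn2d) over all cells. Without barcodes of both hashtags Cdkn2d was at -0.37 over all cells and -0.27 in cycling neutrophils. The same class weights gave 0.25 (Cdkn1a), 0.083 (Cdkn1b), 1.27 (Cdkn1c), 0.020 (Cdkn2c) and -0.42 (Cdkn2d) over all cells and 0.52 (Cdkn1a), 0.19 (Cdkn1b) and 2.04 (Cdkn1c) in progenitors. Except for the hashtag, barcode and weight choices, which change the cells by construction, the cause was not tested.

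The difference in Cdkn2d detection in progenitors was -14.6 percentage points unthinned and -3.57 thinned, and in cycling neutrophils 0.957 and -4.56. The number of genes past 2-fold depended on depth and on the minimum of UMIs. Thinning, a minimum of 20 UMIs and a minimum of 500 UMIs gave 365, 1651 and 434 over all cells (915 as reported), 26, 1072 and 64 in stem-cell-like cells (364), 114, 1145 and 198 in progenitors (532), 106, 915 and 148 in cycling neutrophils (381) and 209, 1055 and 154 in post-mitotic neutrophils (453). Hashtag 1 cells gave 214 in stem-cell-like cells and 291 in post-mitotic neutrophils. With classes weighted alike, 285 genes were past 2-fold higher and 457 lower over all cells, against 177 and 738, and 191 and 236 in progenitors, against 143 and 389.

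No paired analysis was possible because each group has 1 library and the labels give no replicate numbers. Thinning left fewer than 20 UMIs of Cdkn1c over all cells and in each class, and of Cdkn1a in stem-cell-like cells. Hashtag 1 cells left fewer than 20 Cdkn1c UMIs in stem-cell-like cells and progenitors, and hashtag 2 cells in progenitors. These were not compared, nor were Cdkn1a and Cdkn1c in post-mitotic neutrophils under any setting. The 47 stem-cell-like cells limit every value of that class.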

Other observations

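The classes outside the neutrophil path held too few cells for more than a description, and these values were chosen after they were seen. B-lineage cells, 81 in the control library and 33 in the other, had 165 and 48.1 CPM of Cdkn2d (203 and 18 UMIs), a log2 ratio of -1.70 with an interval of -2.56 to -1.08. Their median depths were 14580 and 4287 UMIs and their Mki67 levels 756 and 500 CPM, so depth and the proliferation marker moved with Cdkn2d, and their part in it was not tested. Dendritic cells, 23 and 31, had 88.3 and 13.96 CPM of Cdkn2d on 34 and 7 UMIs. Their Mki67 levels were 465 and 99.7 CPM. In these dendritic cells Cdkn1b was at 75.3 and 71.8 CPM. B-lineage cells also held Cdkn1a at 43.8 and 45.4 CPM, against 8.55 and 7.88 CPM in pooled progenitors; the second B-lineage value rests on 17 UMIs.

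The gene next to Cdkn2d, Kri1, lies on the same strand with 440 bases between the annotated genes. Its log2 ratio was -0.35 over all kept cells (31.7 and 24.9 CPM), -0.25 in progenitors, -0.33 in cycling neutrophils and -0.51 in post-mitotic neutrophils. Over the 250 kb around Cdkn2d, 13 of 17 genes read were below 0 over all cells, where 71.0% of all genes were, 13 of 16 were in progenitors, where 61.7% of all genes were, 7 of 15 in cycling neutrophils beside 57.3%, and 7 of 12 in post-mitotic neutrophils beside 58.6%.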
